A study of Mus musculus with 6 samples.

Results

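Voltage-gated sodium channels are the membrane proteins that carry the upstroke of the action potential. Each channel has a large pore-forming alpha subunit, with a voltage sensor and a sodium-selective pore repeated in homologous domains, and smaller beta subunits, single-pass proteins with an immunoglobulin-like domain that change the gating and membrane placement of the pore. In adult skeletal muscle the main alpha subunit is the product of Scn4a. The members described here are 6 genes of this family, Scn9a, Scn4a, Scn3a and Scn8a for alpha subunits and Scn3b and Scn4b for beta subunits, matched by symbol among the 21778 genes of the count table. They were chosen by the same 6 columns of raw counts that are described here, with the knockout comparison already known, because Scn9a had one of the clearest higher values in the knockout. In the authors' deposited table its log2 fold change of knockout over wild type was 2.29. The knockout against wild-type values of the 6 genes are therefore given as a description, without a test.

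The libraries are poly(A) RNA from primary mouse myoblasts, mononuclear muscle precursors isolated from hindlimb muscle as cells positive for alpha7-integrin and CD34 and kept for 24 h in differentiation medium. Of the 6 libraries, 3 come from Hdac11-/- mice (KO) and 3 from wild-type littermates (WT), all on C57BL/6. Values per library are listed throughout in the order of replicates 1, 2 and 3. The KO allele lacks exon 3 of Hdac11, which encodes a histone deacetylase, after recombination by a Cre driven from the SOX2 promoter. It is a total knockout, so the loss was present in the mouse before the cells were taken and is not limited to muscle.

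Total counts ran from 16742457 to 22835394 per library, so that 1 count was worth 0.0431 to 0.0582 CPM, where CPM are counts scaled to a library total of 1000000 with TMM factors. The targeted gene, Hdac11, had values of 33.5, 76.4 and 30.2 CPM in the KO libraries and 63.0, 79.5 and 73.8 CPM in the WT libraries. The library labelled KO replicate 2 thus lay within the WT range, and member values without it are given below. Counts summed over a gene cannot show the loss of 1 exon. By Xist and Y-linked counts, KO replicate 3 and WT replicate 1 looked male and the other 4 libraries female. Markers of differentiated muscle were abundant in every library, at 8827 to 56213 CPM summed over 13 genes, while the summed level was at most 12.0 CPM for 6 endothelial markers and 16.1 CPM for 5 leukocyte markers. Sums were higher for fibroblast markers, at 332.3 to 770.3 CPM, and Schwann cell markers, at 174.2 to 901.9 CPM. Those for smooth muscle and pericytes were at 2093 to 5520 CPM. Only markers present in the count table were summed, and single genes weigh heavily in some sums, as given below. Each edgeR comparison below comes from 1 fit over 14835 genes that passed a low-count filter. That fit called 0% of genes higher and 0% lower in KO at an adjusted p under 0.05, while 1465 genes were higher and 1161 lower by unadjusted p under 0.05. On the same genes DESeq2 called 613 higher and 328 lower and limma-voom called 0.

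The promoters of Scn9a and Scn4a are shown because these genes had the 2 largest log2 fold changes among the tested members, in opposite directions. The RefSeq promoter table on GRCm38.p6 held an entry for 4 of the 6 members. Each sequence is the 250 bases before the annotated start, on the gene's own strand, with matches to the E-box CANNTG in capitals. E-boxes are the DNA motif of basic helix-loop-helix proteins, the class to which the myogenic factors belong.
Scn9a, chr2:66634963-66635212, minus strand: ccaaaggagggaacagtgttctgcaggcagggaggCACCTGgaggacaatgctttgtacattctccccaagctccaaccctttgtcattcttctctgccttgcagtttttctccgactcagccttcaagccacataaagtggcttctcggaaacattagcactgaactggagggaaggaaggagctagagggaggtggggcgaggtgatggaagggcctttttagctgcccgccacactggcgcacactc
Scn4a, chr11:106349391-106349640, minus strand: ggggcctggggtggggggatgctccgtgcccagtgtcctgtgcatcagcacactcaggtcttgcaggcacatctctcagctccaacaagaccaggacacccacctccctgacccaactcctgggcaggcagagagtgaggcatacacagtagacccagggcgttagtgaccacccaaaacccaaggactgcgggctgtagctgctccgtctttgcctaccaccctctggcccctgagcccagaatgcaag
Scn9a held 1 match, CACCTG, whose first base lies 215 bases before the start, and Scn4a held 0. Over all 32851 promoters of the table, 66.22% held at least 1 CANNTG in these 250 bases. Both strands were searched for CANNTG and its special cases CAGCTG and CACCTG, for GGGCGG, a GC box, and for TATAAA. Of these the Scn9a window held only the CACCTG match already counted as an E-box, a sequence present in 17.22% of promoters, and the Scn4a window held none. CAGCTG was present in 13.001% of all promoters, GGGCGG in 32.74% and TATAAA in 12.37%. The GC content was 54.4% for Scn9a and 61.6% for Scn4a, beside a median of 52.4% over the table. These matches are letters in a window and say nothing of binding. The annotated starts used for both genes lie within the RefSeq spans of the genes, so that part of the Scn9a window and all of the Scn4a window overlap the gene. The Scn9a record ends at 66635114 on chromosome 2, and that of Scn4a reaches from 106317545 to 106365559 on chromosome 11.

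Scn4a, the gene of the adult skeletal muscle channel, was the most abundant of the 6 members by CPM. It was at 62.3, 22.99 and 19.4 CPM in the KO libraries and at 38.2, 176.4 and 104.1 CPM in the WT libraries. The groups overlapped, since KO replicate 1 lay above WT replicate 1. The means were 34.9 ± 23.8 CPM in KO and 106.2 ± 69.1 CPM in WT (SD, n = 3), and the log2 fold change was -1.60 (SE 0.62). The value was -1.37 without the library labelled KO replicate 2. It was largest in size without KO replicate 1, at -2.32, and smallest without WT replicate 2, at -1.03. In bulk RNA, fewer cells that express a gene and less of its RNA per cell cannot be told apart.

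The spread of Scn4a within each group followed that of a sum of differentiated muscle markers. Summed over Myh3, Myh8, Mylpf, Myl1, Acta1, Tnnt1, Tnnt3, Tnnc2, Ckm, Tmem8c, Gm7325, Myog and Ttn, these markers were at 24876, 11596 and 8827 CPM in the KO libraries and 21345, 56213 and 45990 CPM in the WT libraries. All 6 libraries had the same rank in Scn4a and in the marker sum, from WT replicate 2 at the top to KO replicate 3 at the bottom. Myh3 weighed heavily in this sum, with 6444 of the KO mean of 15100 CPM and 21322 of the WT mean of 41183 CPM. Not every single marker kept this order of libraries. Tnnt3, Ckm, Gm7325 and Myog were lower in every KO library than in every WT library. Myh8, Myl1, Ttn and Tmem8c departed from the order in other ways. Per 1000 CPM of marker sum, Scn4a was at 2.51, 1.98 and 2.20 CPM in KO and at 1.79, 3.14 and 2.26 CPM in WT. On this scale the KO mean was 2.23 ± 0.26 and the WT mean 2.40 ± 0.68 (SD, n = 3), while the WT range enclosed the KO range. All 13 markers had a negative log2 fold change, with a median of -1.26 beside -0.0086 over all tested genes. edgeR called 0 of the 13, with 8 lower and 0 higher by unadjusted p under 0.05, and DESeq2 called 7 lower. The part of differentiation state in the Scn4a difference was not tested.

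**Figure D1:**
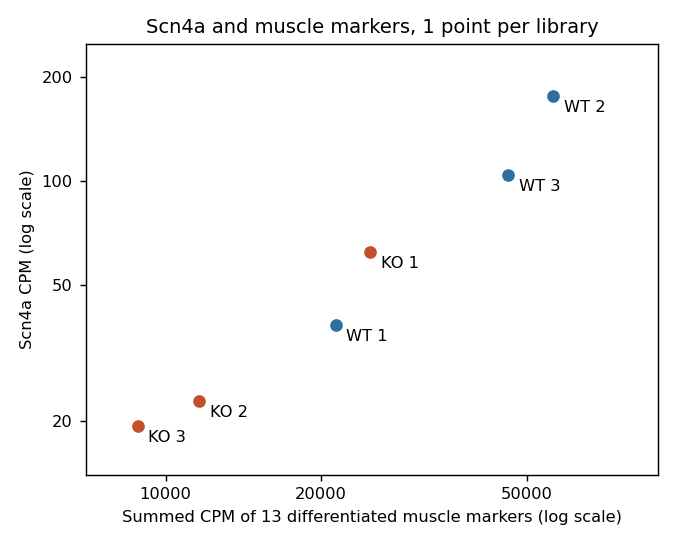
Scn4a CPM (vertical, log scale) against the summed CPM of 13 differentiated muscle markers (horizontal, log scale), 1 point per library with KO in orange and WT in blue. The order of the libraries is the same on both axes, and KO 1 lies above WT 1 on both.

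Genes with the pattern most like that of Scn4a were found by the root mean square difference over the 6 libraries between centred log2 CPM values. The closest 4 were Unc45b, a myosin chaperone of muscle, at 0.14, Hspb3, a small heat shock protein, at 0.15, Myh3, the embryonic myosin heavy chain, at 0.17, and BC051019 at 0.17. Unc45b was at 307.3, 131.0 and 79.0 CPM in the KO libraries and at 188.4, 826.4 and 505.4 CPM in the WT libraries. As for Scn4a, its 2 highest values were WT replicates 2 and 3 and its value in KO replicate 1 was above that in WT replicate 1. The 6 libraries share their depth and their culture with each gene compared, so the likeness is a description only.

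Scn9a encodes an alpha subunit best known from peripheral sensory and sympathetic neurons, where loss of function abolishes pain in humans. Raw counts were 96, 169 and 97 in the KO libraries and 18, 23 and 10 in the WT libraries. In CPM these were 4.78, 7.56 and 5.48 in KO and 0.78, 1.34 and 0.53 in WT. Every KO library lay above every WT library. The lowest KO value was KO replicate 1 and the highest WT value was WT replicate 2. The means were 5.94 ± 1.45 CPM in KO and 0.88 ± 0.42 CPM in WT (SD, n = 3), which is 6.74-fold, and the log2 fold change was 2.75 (SE 0.43). The value was 2.54 without the library labelled KO replicate 2, in which Scn9a was highest, and ranged from 2.51 to 3.17 when each library was left out in turn. Scn9a and Scn4b were the 2 of 6 members whose KO libraries all lay above the WT libraries, beside 13.2% of the 14835 tested genes. None of the 6 had all KO libraries below, beside 10.2%. The contrast chose the members, so nothing is read from these shares. The strand setting of the read counting is not known, and reads of annotated lncRNAs that overlap Scn9a could not be told apart from its own.

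The summed level of neuron markers had a higher mean in KO as well. The sum over 9 genes was at 65.5, 21.1 and 59.0 CPM in the KO libraries and at 11.5, 16.7 and 40.1 CPM in the WT libraries. The ranges overlapped, and the order within KO was the reverse of that of Scn9a, with KO replicate 2 lowest in the markers and highest in Scn9a. All 5 tested neuron markers had a positive log2 fold change, with a median of 1.88. They ranged from 0.057 (SE 0.66) for Tubb3, whose sign turned without some libraries, to 2.36 (SE 1.51) for Nefm. None of the 9 markers was at 0 in all libraries, but only genes present in the table were summed. Of its 21778 genes only 9 were at 0 in every library, so nothing is read from this. edgeR called 0 of the 5, with 1 higher and 0 lower by unadjusted p under 0.05, and DESeq2 called 1 higher. That gene was Stmn2, which encodes a microtubule regulator of growing axons, at 24.1, 8.81 and 33.5 CPM in KO and 5.12, 9.32 and 3.60 CPM in WT. Nefm, a neurofilament subunit, was at 16.4, 0.40 and 7.68 CPM in KO and at 0.39, 0 and 4.39 CPM in WT. Syt1, a synaptic vesicle protein gene, and Nefh, the heavy neurofilament subunit, had group means of at most 0.097 and 0.38 CPM. Markers of dividing cells also stood apart by genotype, with sums over 10 genes of 1015 to 1565 CPM in KO and 338.3 to 583.8 CPM in WT. All 10 had a positive log2 fold change, with a median of 1.48. edgeR called 0 of them, with 10 higher by unadjusted p under 0.05, and DESeq2 called 10 higher. Of the other 7 marker lists, the sum for fibroblasts was higher in every KO library than in every WT library, and those for myoblasts and satellite cells, Schwann cells, and smooth muscle and pericytes were lower. Single genes weigh heavily in such sums. Col3a1 gave 692.5 of the KO mean for fibroblasts, whose range was 627.4 to 770.3 CPM, and Erbb3 gave 603.9 of the WT mean for Schwann cells, whose range was 459.1 to 901.9 CPM. For myoblasts and satellite cells, Des gave 1886 and Itga7 1793 of the WT mean, whose range was 5537 to 6368 CPM. Des is also in the smooth muscle list. Members of all these lists had values in either direction. These were 3 positive and 2 negative for fibroblasts, 2 and 3 for Schwann cells, and 1 and 6 for smooth muscle and pericytes. For myoblasts and satellite cells 5 were positive and 5 negative, with 4 higher and 2 lower by edgeR unadjusted p under 0.05. The part of these marker lists in the Scn9a difference was not tested.

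Scn3a, an alpha subunit of the embryonic nervous system, was low and uneven. Its counts were 53, 16 and 15 in the KO libraries and 12, 15 and 111 in the WT libraries. A single WT library thus held 111 of the 138 WT counts. The means were 1.40 ± 1.07 CPM in KO and 2.42 ± 3.00 CPM in WT (SD, n = 3), and the log2 fold change of -0.78 (SE 0.95) was smaller than its error. Without WT replicate 3 the value of Scn3a was 1.03, with the opposite sign. Without the library labelled KO replicate 2 it was -0.46. WT replicate 3 was also the highest library for Tubb3, a neuronal tubulin of the neuron marker list, with 526 counts beside 97 to 336 in the other 5. Stmn2 of the same list was instead lowest in that library, with 68 counts. The sum of the neuron markers there, 40.1 CPM, lay below those of KO replicates 1 and 3, at 65.5 and 59.0 CPM.

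Scn8a, the alpha subunit of nodes of Ranvier and axon initial segments, was close to the limit of detection. It had 5, 1 and 2 counts in the KO libraries and 6, 0 and 4 counts in the WT libraries. It did not pass the low-count filter, and at 8 counts in all of KO and 10 in all of WT no difference was detectable at this depth.

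Among the beta subunits, Scn3b had a mean CPM between those of Scn4a and Scn9a in both groups, without a correction for length. It was at 35.1, 9.13 and 28.6 CPM in the KO libraries and at 11.9, 40.5 and 14.4 CPM in the WT libraries. Both groups held a low and a high library, the lowest being KO replicate 2 and the highest WT replicate 2. The spread within each group was 3.84-fold in KO and 3.39-fold in WT, while the means differed little, at 24.3 ± 13.5 CPM and 22.3 ± 15.8 CPM (SD, n = 3). The log2 fold change was 0.12 (SE 0.60). Leaving out the library labelled KO replicate 2 gave 0.52, leaving out WT replicate 2 gave 0.88 and leaving out KO replicate 1 gave -0.24. The genes with the most similar pattern to Scn3b were P3h2, a prolyl hydroxylase of collagen, at a root mean square difference of 0.19, Spns2, a sphingosine-1-phosphate transporter, at 0.23, Acsl1, an acyl-CoA synthetase, at 0.30, and Kcnj12, an inward rectifier potassium channel, at 0.31.

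Scn4b, the other beta subunit, was counted 3, 6 and 4 times in the KO libraries and 1, 1 and 0 times in the WT libraries. The groups did not overlap, but the values rest on 13 counts in KO and 2 in WT. The ratio of the summed counts per scaled total was 6.41, with an exact 95% Clopper-Pearson interval of 1.45 to 58.5 that covers counting error only and not the spread between libraries. Scn4b did not pass the low-count filter, so 4 of the 6 members were fitted. In the authors' deposited table the log2 fold changes were -1.21 for Scn4a, -0.43 for Scn3a, -0.072 for Scn8a, 0.091 for Scn3b and 0.74 for Scn4b, each with the sign found here for the members that were fitted.

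**Figure D2:**
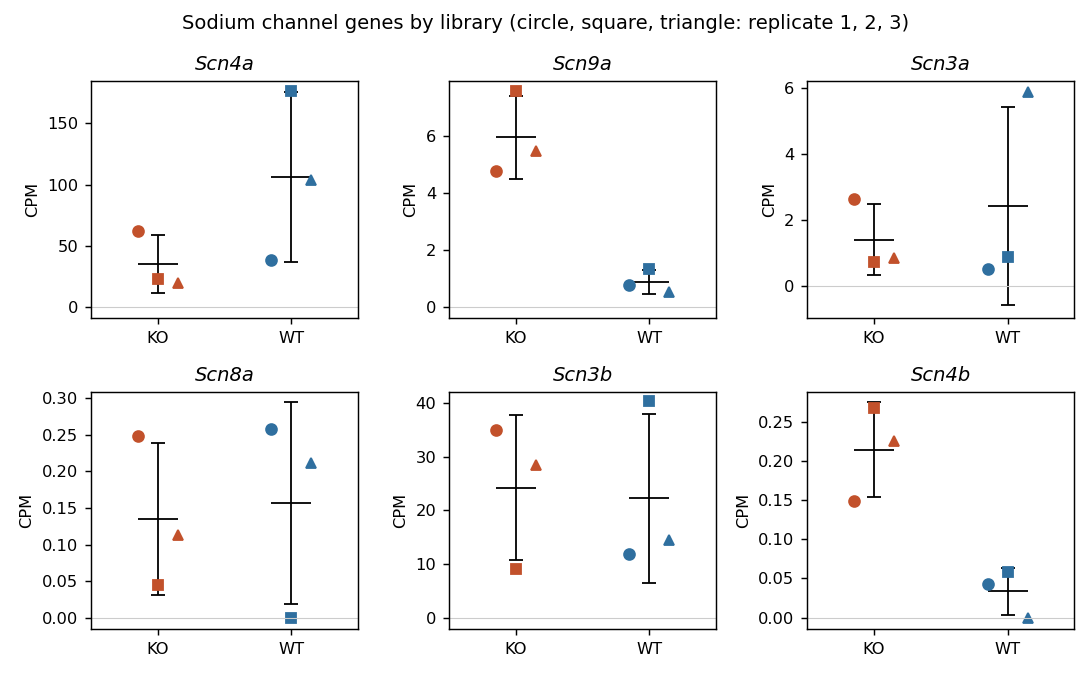
CPM (vertical, from a separate axis in each panel) of the 6 members in 3 KO (orange) and 3 WT (blue) libraries, with black bars for the mean and SD of each group. Scn9a and Scn4b are the panels in which the groups do not overlap, and Scn3a shows 1 WT library apart at 5.88 CPM.

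Levels of different genes were compared per kilobase of annotated transcript, taking the transcript with the longest coding sequence in GENCODE vM1. Among the 6 members, Scn4a was the highest in WT, at 16.1 ± 10.5 CPM per kb, followed by Scn3b at 4.93 ± 3.50 (SD, n = 3). The ranges of these neighbours overlapped, while Scn4a was above Scn3b within each WT library. Scn3a followed at 0.25 ± 0.31 and Scn9a at 0.090 ± 0.042, which also overlapped, and Scn8a and Scn4b were both under 0.02. In KO the first were Scn3b at 5.37 ± 2.99 and Scn4a at 5.29 ± 3.61, which did not differ beyond their spread, and then Scn9a at 0.60 ± 0.15 and Scn3a at 0.15 ± 0.11 CPM per kb. Every KO value of Scn9a was above every KO value of Scn3a, the highest of which was 0.28. Scn9a thus stood below Scn3a by its WT mean and above it by its KO mean. The WT order rests on WT replicate 3 alone, where Scn3a was at 0.61. In WT replicates 1 and 2 Scn9a was the higher, at 0.079 and 0.14 beside 0.054 and 0.091 for Scn3a. The highest Scn9a library, at 0.77 CPM per kb, was still far below the lowest Scn4a library, at 2.94. Per kilobase of coding sequence, Scn3b was at 34.4 and Scn4a at 19.2 in WT, so the order of the first pair depends on the length used. Scn10a, Scn7a, Scn2a1, Scn1a and Scn11a, other alpha subunit genes of the table, had WT means of 0.0074 to 0.71 CPM per kb.

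**Figure D3:**
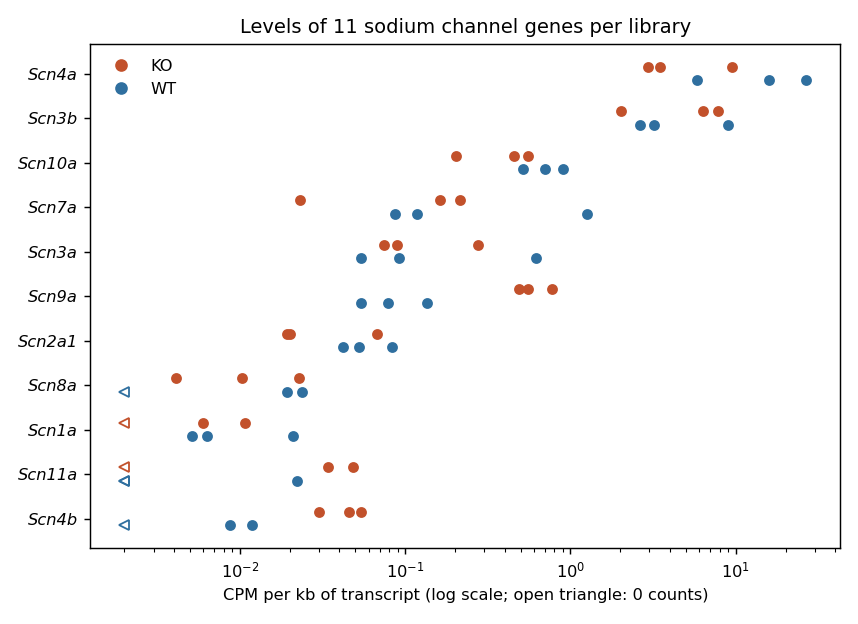
CPM per kb of transcript (horizontal, log scale) of 11 sodium channel genes, the 6 members among them, in each library, KO in orange and WT in blue, ordered by the WT mean. Open triangles at the left edge mark libraries with 0 counts, and the KO points of Scn9a, at 0.49 to 0.77, and of Scn4b sit to the right of their WT points.

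Of the other family genes described here, edgeR tested Scn10a and Scn7a, and both adjusted p-values were above 0.05. Scn10a, a sensory neuron subunit, was at 3.54, 1.30 and 2.88 CPM in the KO libraries and at 3.27, 5.76 and 4.45 CPM in the WT libraries. The groups overlapped, and the log2 fold change was -0.80 (SE 0.44, edgeR adjusted p = 0.369). Scn7a, an atypical sodium-sensing relative, held 159 of its counts in WT replicate 2 and 3 to 35 in each of the other libraries. Its log2 fold change of -1.84 (SE 1.14, edgeR adjusted p = 0.418) became 0.39 without WT replicate 2.

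Scn9a, Scn3a, Scn1a, Scn2a1 and Scn7a lie together on chromosome 2. In the RefSeq table of GRCm38.p6 the first of them is Scn3a, from 65457118 to 65567591, and the last is Scn7a, from 66673426 to 66784910, with Scn9a from 66480080 to 66635114. Scn4a is on chromosome 11, Scn8a on chromosome 15, and Scn3b and Scn4b on chromosome 9. Of the cluster genes, Scn9a had a positive value, Scn3a and Scn7a had negative values that rest on 1 WT library each, and Scn1a and Scn2a1 did not pass the low-count filter, with 8 and 51 counts in all. Within 1 Mb of Scn9a, 5 other genes were tested and edgeR called 0, with 1 higher and 0 lower by unadjusted p under 0.05. That gene was Ttc21b, a component of intraflagellar transport, at 29.3 ± 8.89 CPM in KO and 16.6 ± 4.60 CPM in WT (SD, n = 3), and the log2 fold change was 0.82 (SE 0.30, edgeR adjusted p = 0.233). Xirp2, a muscle actin-binding protein gene in the same window, had -2.24 (SE 0.99, edgeR adjusted p = 0.293), which was -0.014 without WT replicate 3.

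Proteins that anchor or modulate sodium channels gave 25 tested genes of 27 in the table, with a median log2 fold change of -0.16, 10 positive and 15 negative. edgeR called 0, with 5 higher and 5 lower by unadjusted p under 0.05. DESeq2 called 1 higher and 3 lower, beside 4.13% and 2.21% of all tested genes. The gene with the smallest p was Sntb1, a syntrophin of the dystrophin complex, at 115.6 ± 39.5 CPM in KO and 253.4 ± 43.6 CPM in WT (SD, n = 3), and the log2 fold change was -1.13 (SE 0.28, edgeR adjusted p = 0.158). Sptbn1, a beta spectrin, and Ank1, an ankyrin, both of the membrane skeleton, had -0.89 and -0.86 (edgeR adjusted p = 0.193 for each). Dpysl2, also called CRMP2, a cytoskeletal regulator, had 1.06 (SE 0.33, edgeR adjusted p = 0.201), and S100a10, an annexin partner, had 0.70 (SE 0.20, edgeR adjusted p = 0.191). Dpysl2 was at 45.6 ± 4.64 CPM in KO and 21.8 ± 10.3 CPM in WT. Its groups did not overlap, nor did those of Sntb1, Sptbn1, Ank1 and S100a10, beside 23.4% of all tested genes. These 5 were named for the smallest p of the list, so nothing is read from their separation. Some other genes of the list also had groups without overlap. The abundant Nedd4, a ubiquitin ligase, had -0.064 (edgeR adjusted p = 0.887), and its sign turned with scaling by library totals.

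Among 20 other channels, pumps and receptors of muscle excitability, 18 had a negative log2 fold change and 2 a positive one, with a median of -1.10. edgeR called 0 of the 20, with 0 higher and 11 lower by unadjusted p under 0.05, beside 9.88% and 7.83% of all tested genes. DESeq2 called 8 lower and 0 higher. Ryr1, the calcium release channel, had -1.44, Kcnj11, a subunit of ATP-sensitive potassium channels, -1.66, Musk, the kinase that organises the neuromuscular junction, -1.39, and Cacnb1, a subunit of the muscle calcium channel, -1.23. Their edgeR adjusted p-values were 0.157, 0.158, 0.170 and 0.201. The abundant Chrna1, an acetylcholine receptor subunit, had -0.57 (edgeR adjusted p = 0.375). Musk was at 73.7 ± 20.8 CPM in KO and 193.9 ± 99.3 CPM in WT (SD, n = 3). The value of Scn4a, -1.60, lay among these. As given above, the summed markers of differentiated muscle had the same order of libraries as Scn4a. Cacnb1 also had this order. Ryr1, Kcnj11 and Musk did not, being lower in every KO library than in every WT library, beside 10.2% of all tested genes. They were named for their small p, so nothing is read from that separation.

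**Figure D4:**
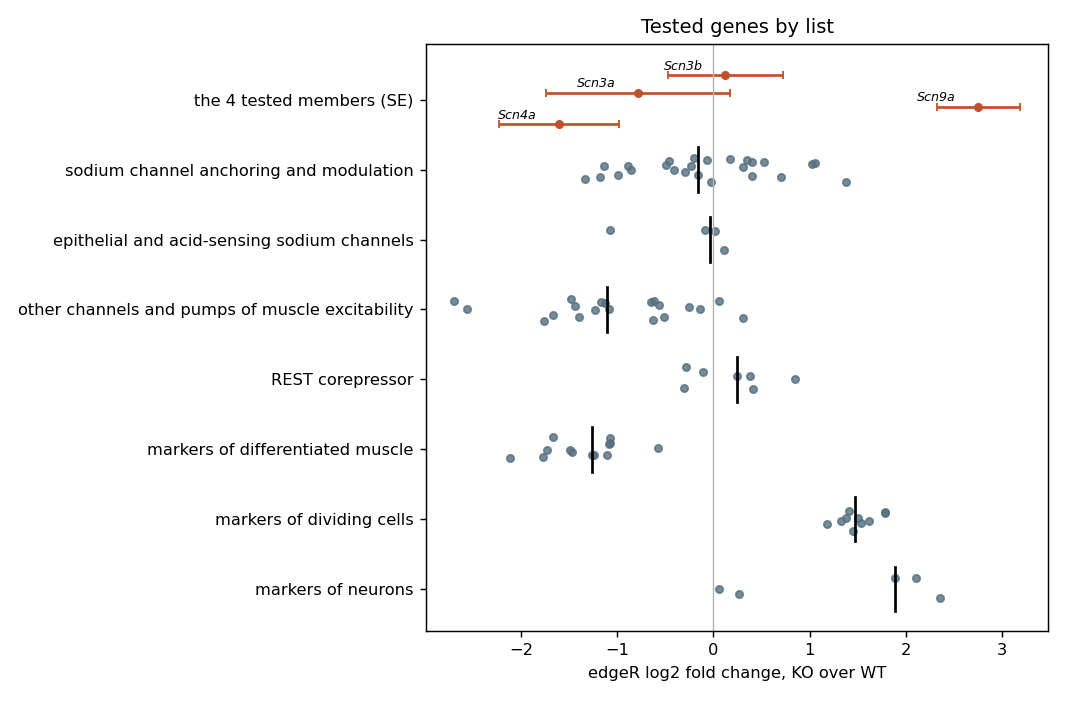
edgeR log2 fold change of KO over WT (horizontal) for the 4 tested members, with SE bars, and for the tested genes of 7 lists, with a vertical line at each list's median. Scn9a stands at 2.75 and Scn4a at -1.60, the latter among the genes of muscle excitability and differentiated muscle.

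REST is a repressor that holds neuronal genes, sodium channel genes among them, silent in other tissues, and it acts through histone deacetylase complexes. Of 7 genes for REST and its corepressors, all tested, 4 had a positive and 3 a negative log2 fold change, with a median of 0.24. edgeR called 0, with 2 higher and 0 lower by unadjusted p under 0.05, and DESeq2 called 0. Rest itself, named after its value was seen, was at 75.6 ± 2.14 CPM in KO and 93.4 ± 7.84 CPM in WT (SD, n = 3), and the log2 fold change was -0.30 (SE 0.13, edgeR adjusted p = 0.288). The 3 genes of the sodium leak channel complex in the table had group means of at most 0.20 CPM and were not tested. Epithelial and acid-sensing sodium channels, which are not voltage-gated, gave 4 tested genes with a median of -0.034, and edgeR called 0, with 0 by unadjusted p under 0.05, and DESeq2 also called 0.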

How the data were processed

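Poly(A) RNA libraries of 3 KO and 3 WT cultures were grouped by their titles, and table columns by the letter codes in their descriptions. The build GRCm38 and the tools featureCounts, TopHat2 2.0.8, Bowtie2, Trimmomatic, FastQC and DESeq2 are listed without their roles, per the submitters' processing notes. The order of steps, the annotation and the strand setting were not given in the sources used. The deposited table holds the authors' raw counts per gene. Its normalized columns are a signal in which the authors divided each count by 1 size factor per library, and they were not used for tests. The deposited log2 fold changes are the authors' own.

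Genes were kept with filterByExpr by group, 14835 of 21778. After TMM scaling, edgeR 4.0.16 was used (glmQLFit, glmQLFTest; R 4.3.3), adjusted by Benjamini-Hochberg over all tested genes, threshold 0.05. Standard errors were derived from the F statistic. Pattern likeness used log2 CPM with a prior count of 2. Scripts were tested on simulated counts. Alternatives were DESeq2 1.42.0, limma-voom (limma 3.58.1), other scalings and filters, a replicate block, a sex term and each library left out. Totals of 16742457 to 22835394 counts set the precision, and intervals cover counting error only. The strand setting being unknown, reads of genes that overlap in RefSeq, which include lncRNAs at Scn9a, Scn3a and Scn8a, may not be separable.

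The members and lists were chosen with earlier results of these data known. The rule for named genes takes the members, up to 5 genes with the smallest p and 3 with the highest mean of each sodium channel or excitability list, up to 3 abundant genes of the other lists, the 4 genes most alike in pattern for members of at least 5 CPM, and up to 3 neighbours of Scn9a; a subset is printed. Some other genes, and the shares of the alpha subunit genes, are not reported here. Syt1, Nefh and Rest lie outside it and were named after their values were seen. Marker lists whose median is not given in the results had median log2 fold changes of 0.26 for myoblasts and satellite cells, -0.68 for Schwann cells, 0.16 for fibroblasts, -0.65 for smooth muscle and pericytes, -0.56 for endothelial cells and -0.43 for leukocytes. edgeR called 0 genes in each, with 4 higher and 2 lower, 1 and 2, 1 and 1, 0 and 1, 0 and 1, and 0 and 0 by unadjusted p under 0.05, and DESeq2 called 3 higher and 1 lower, 1 and 0, 0 and 0, 0 and 1, 0 and 0, and 0 and 0.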

Additional observations from a re-analysis of the deposited data

How the results depend on the processing

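The DESeq2 and limma-voom counts of members were added after seeing the data. Depth was not varied. Genes of few counts, such as Scn8a and Scn4b, are limited by it. Where a value changed, the cause was not tested. With library totals as the scale, the median over all genes moved to 0.14 (log2).

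edgeR called 0 genes in each alternative run with it, and 0 with the threshold on the adjusted p at 0.1. DESeq2 called 613 genes higher and 328 lower, and, of the listed genes outside the marker lists, 1 higher and 11 lower. Its calls included 1 of the 6 members, Scn9a, whose higher values in these counts chose it, so nothing is read from that call. The count by unadjusted p under 0.05, 2626 over both directions, was 1338 when KO replicate 3 was left out and 1609 when WT replicate 2 was. The fit with a replicate block called 0 genes higher and 0 lower. Deviations of same-numbered libraries correlated at -0.25, -0.069 and 0.048. Pairing by number was thus not seen, but 3 libraries per group cannot exclude it. The number of members with all KO libraries below all WT libraries was 0 to 1 when each library was left out, the 1 being Scn4a without KO replicate 1 or WT replicate 1. The number with all KO above was 2 throughout.

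Over 14 settings Scn9a was positive and Scn4a negative in 14. Scn3a kept its sign in 13 and Scn3b in 11; without WT replicates 1 and 3 Scn3b was at -0.16 and -0.10. A sex term gave 2.75, -1.48, -0.53 and 0.20 for Scn9a, Scn4a, Scn3a and Scn3b. Signs turned for some other genes. With each library left out, Scn7a ranged from -2.35 to 0.39 (without WT replicate 2), Nedd4 from -0.15 to 0.033 (positive without KO replicate 3 or WT replicate 1) and Tubb3 from -0.33 to 1.36 (negative without KO replicate 1, WT replicate 1 or WT replicate 2). With library totals Nedd4 was at 0.082.

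Per kb of coding sequence, KO and WT levels were 0.997 and 0.148 for Scn9a, 0.0238 and 0.0275 for Scn8a, 37.4 and 34.4 for Scn3b and 0.312 and 0.0491 for Scn4b.

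With a prior count of 0.5, 4 of the 4 genes most like Scn4a and 3 of the 4 most like Scn3b were shared.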
